A study of Homo sapiens with 6 samples.

Results

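Subunits of the NuRD, SIN3, CoREST and NCoR deacetylase corepressor complexes were examined in OCI-AML3 cells treated with Vorinostat. The set was fixed by name as CHD4, MTA1, MTA2, MBD3, RBBP4, RBBP7, SIN3A, RCOR1, KDM1A and NCOR1. The rule itself uses no measured value, but the genes were chosen with earlier results of these data known. Of these 10 genes, 9 were named by 23 probe sets of the array, out of 19775 genes and 54613 probe sets in all. NCOR1, the scaffold that binds HDAC3 in the NCoR complex, was not analysed here, because no probe set named it in the annotation used. OCI-AML3 is an established acute myeloid leukaemia (AML) line that carries a mutation in nucleophosmin (NPM1). Vorinostat-treated cells received 1 μM of the pan-histone deacetylase inhibitor (SAHA) for 24 hours (3 samples), and DMSO-treated cells received the solvent alone for 24 hours (3 samples). Total RNA of each sample was hybridised to one Affymetrix Human Genome U133 Plus 2.0 array, and the deposited values are on the log2 scale. All samples come from a single cell line, and no label says if the replicates were grown as separate cultures, so p-values reflect variation among the 6 samples, part of which can be technical. In bulk RNA, fewer cells with a transcript and less transcript per cell cannot be told apart.

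Histone deacetylases HDAC1, HDAC2 and HDAC3 work largely as parts of multi-subunit corepressors, which sequence-specific factors bring to promoters and enhancers. NuRD couples HDAC1 and HDAC2 to a chromatin remodelling ATPase, SIN3 builds on a large scaffold protein, CoREST pairs the deacetylases with a histone demethylase, and NCoR and SMRT hold HDAC3. Vorinostat binds the zinc-containing catalytic site of the deacetylases, so the scaffold and adaptor subunits are partners of its targets rather than its targets.

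The arrays differed in the upper part of their values. The number of probe sets above a log2 value of 3, the level used here to mark dim probe sets, was 8158 in Vorinostat replicate 1, against 2769 and 3274 in Vorinostat replicates 2 and 3. It was 8645 in DMSO replicate 1, against 3731 and 2761 in DMSO replicates 2 and 3. The 95th percentile of all values was 5.58, 3.01 and 3.25 in Vorinostat replicates 1, 2 and 3, and 5.78, 3.48 and 3.01 in DMSO replicates 1, 2 and 3. The median went the other way, at 1.55, 1.64 and 1.65 in Vorinostat replicates 1, 2 and 3, and 1.55, 1.65 and 1.66 in DMSO replicates 1, 2 and 3. Both arrays numbered 1 thus had a longer upper tail and a lower median than the other 4. Of 9 measured myeloid markers of the AML line, 2, CEBPA and LYZ, exceeded 3 on all 6 arrays. MPO, SPI1, ANPEP and CSF3R, 4 of the 9, exceeded it on none. Of 24 measured T and NK, B, erythroid, epithelial and fibroblast markers, 19 were at or below 3 on all arrays, and 1, EPOR, had a mean of at least 3.

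The promoter windows of 4 of the genes are shown, picked by the signs of their differences. MTA1, SIN3A and KDM1A were lower with Vorinostat in each replicate number by their brightest probe set. CHD4 had a positive difference in every one of its probe sets. The window of MTA2, which was higher in each number with no value above 3, is not shown. A link between these windows and the differences was not tested. Each window runs from 250 bases before to 50 bases after the transcript start in RefSeq (GRCh38.p14), 5′ to 3′ on the strand of the gene. Capitals mark the GC box, GGGCGG or its reverse complement CCGCCC, the core of the recognition site of SP family factors. The windows are chr14:105419577-105419876 (plus strand) for MTA1, chr15:75455766-75456065 (minus strand) for SIN3A, chr1:23019218-23019517 (plus strand) for KDM1A and chr12:6606402-6606701 (minus strand) for CHD4.
MTA1: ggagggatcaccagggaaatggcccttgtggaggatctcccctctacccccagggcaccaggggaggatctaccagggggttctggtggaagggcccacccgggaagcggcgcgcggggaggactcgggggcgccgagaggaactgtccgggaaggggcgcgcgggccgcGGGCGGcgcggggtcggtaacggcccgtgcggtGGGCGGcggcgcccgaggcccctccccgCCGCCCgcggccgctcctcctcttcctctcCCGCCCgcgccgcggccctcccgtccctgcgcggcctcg
SIN3A: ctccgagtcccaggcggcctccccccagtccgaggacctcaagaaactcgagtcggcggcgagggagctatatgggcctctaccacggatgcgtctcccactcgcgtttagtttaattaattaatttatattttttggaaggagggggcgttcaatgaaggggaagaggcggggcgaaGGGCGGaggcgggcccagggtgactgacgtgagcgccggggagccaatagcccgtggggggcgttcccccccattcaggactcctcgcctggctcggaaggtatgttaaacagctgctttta
KDM1A: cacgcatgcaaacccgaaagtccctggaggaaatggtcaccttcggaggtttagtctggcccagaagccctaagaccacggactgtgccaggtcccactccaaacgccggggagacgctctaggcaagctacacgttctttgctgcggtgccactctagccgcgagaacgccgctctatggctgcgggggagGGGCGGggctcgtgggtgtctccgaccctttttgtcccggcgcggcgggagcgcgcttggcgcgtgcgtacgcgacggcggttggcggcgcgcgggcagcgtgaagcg
CHD4: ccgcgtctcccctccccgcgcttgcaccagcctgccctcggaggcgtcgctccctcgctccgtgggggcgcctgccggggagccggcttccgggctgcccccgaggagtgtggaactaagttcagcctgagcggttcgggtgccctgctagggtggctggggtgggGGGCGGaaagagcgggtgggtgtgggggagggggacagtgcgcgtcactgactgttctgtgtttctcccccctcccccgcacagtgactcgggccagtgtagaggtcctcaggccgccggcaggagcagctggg

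The 9 measured genes had 13 windows in the RefSeq table, of which the first listed for each gene was used; that of CHD4 lies inside the span of the gene given below. Their base composition spanned 59.7% G and C in SIN3A to 78.3% in RBBP7. Letters of the GC box occurred on either strand in 9 of 9 windows, against 45.0% of 35116 RefSeq windows of the same length. A gene may have several of the RefSeq windows, and they were not matched to the 9 by base composition. MTA1 held 4 GC box matches, and CHD4, SIN3A and KDM1A held 1 each. The CCAAT box (CCAAT or ATTGG) occurred in 5 of 9 windows, against 34.6% of all windows. The ETS motif (CCGGAAG or CTTCCGG) occurred in 2 of 9, against 10.3% of all windows, and the E-box (CACGTG) in 1 of 9, against 7.26%. A match describes letters only, and nothing in these arrays measured binding at these promoters.

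No gene of the set was called changed. The 9 genes had log2 differences, Vorinostat minus DMSO, between -0.92 for RBBP7 and 0.33 for CHD4 by their brightest probe set, which is the one with the highest mean over the 6 arrays. Of these differences 7 were negative and 2 were positive. In the limma fit over all probe sets, the adjusted p was 1 for each of the 23 probe sets, and the unadjusted p ran between 0.0626 and 0.986. Over the whole array 0 of 54613 probe sets (0.0%) had an adjusted p under 0.05, with 545 at an unadjusted p under 0.05, and the t-test named in the study's methods also called 0 after adjustment. At an unadjusted p under 0.05, 0 of the 9 genes passed, against a background of 0.991% of genes, and 0 passed the study's threshold of over 2-fold with that p, against 0.0961%. Of the 23 probe sets, 15 had means under 3 in both groups.

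CHD4, the ATPase that drives nucleosome remodelling by NuRD (chromosome 12, 6570082 to 6607379), was the only gene of the set with several probe sets that all differed in 1 direction, and its 3 differences were positive. Its brightest probe set, 201183_s_at, had log2 values of 6.04, 3.17 and 3.71 in Vorinostat replicates 1, 2 and 3, against 6.08, 3.33 and 2.53 in DMSO replicates 1, 2 and 3. The groups overlapped, and the gap lay in replicate number 3, where the difference was 1.19, against -0.04 and -0.17 in numbers 1 and 2. Vorinostat minus DMSO came to 0.33 (SE 1.20, 95% interval -2.68 to 3.33, adjusted p = 1 by limma).

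The probe set 201182_s_at of CHD4 was the only one of the 23 whose groups did not overlap, with all Vorinostat arrays above all DMSO arrays, as were 2.39% of all probe sets; 0 of the 23 had all Vorinostat arrays below all DMSO arrays, against 2.87% of all probe sets. It had log2 values of 2.45, 2.09 and 3.60 in Vorinostat replicates 1, 2 and 3, against 2.04, 1.73 and 1.22 in DMSO replicates 1, 2 and 3. Its difference was 1.05 (SE 0.45, 95% interval -0.08 to 2.18, adjusted p = 1 by limma), and 5 of its 6 values were below 3. A two-sided exact permutation test of 3 against 3 arrays cannot give a p below 0.1.

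The remaining CHD4 probe set, 201184_s_at, had log2 values of 5.46, 3.69 and 3.72 in Vorinostat replicates 1, 2 and 3, against 4.85, 3.37 and 2.23 in DMSO replicates 1, 2 and 3. The Vorinostat array was higher in each replicate number, although the groups overlapped, since DMSO replicate 1 lay above Vorinostat replicates 2 and 3. Its difference was 0.81 (SE 0.83, adjusted p = 1 by limma). With the replicate number as a block, the SE was 0.26 and the unadjusted p 0.0347 by limma, whereas the adjusted p was 0.887. In that blocked fit 1.59% of all probe sets were higher at an unadjusted p under 0.05, and this probe set was the only one of the 23 under 0.05 in either direction.

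**Figure D1:**
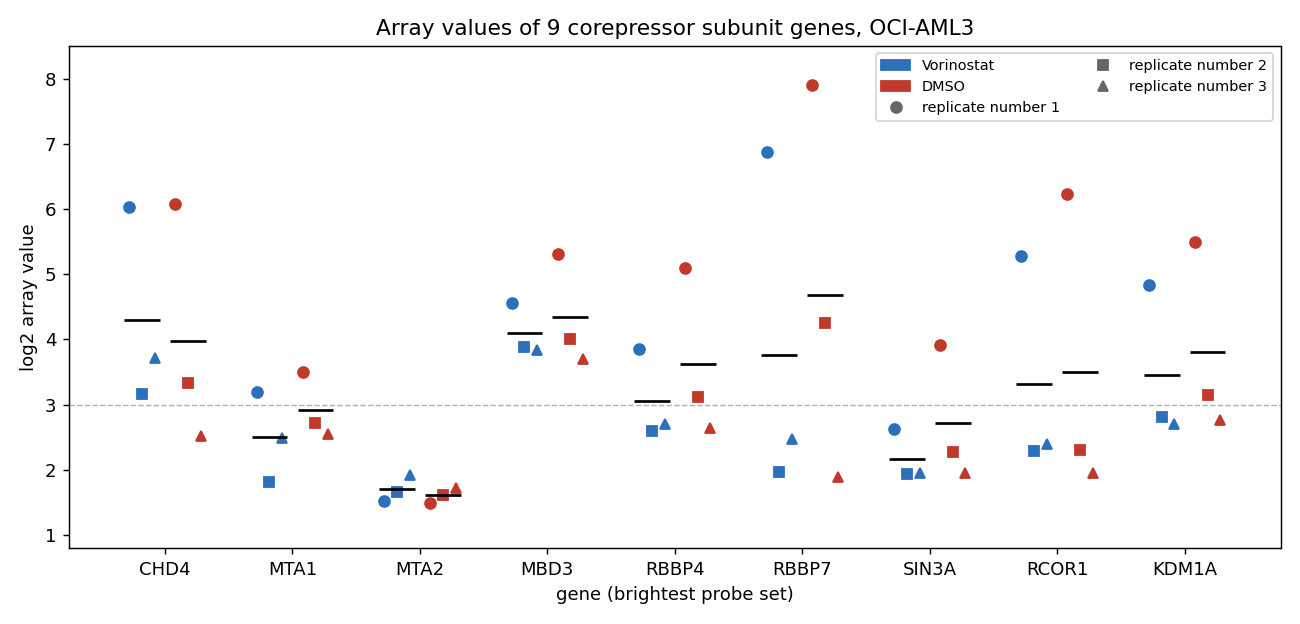
Log2 array value (vertical axis) of the brightest probe set of each of the 9 genes (horizontal axis) in Vorinostat (blue, left) and DMSO (red, right) arrays. Each point is one array, its shape gives the replicate number, black bars are means of 3 arrays, and the dashed line marks a log2 value of 3. The arrays numbered 1 (circles) were the highest of their group in both groups for 8 of 9 genes, the exception being MTA2.

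The other NuRD subunits of the set differed by -0.92 (RBBP7) to 0.09 (MTA2) at their brightest probe sets, and the groups overlapped for each. MTA1 and MTA2 are metastasis-associated proteins that bind the deacetylases and hold the complex together. MTA1 (chromosome 14, 105419827 to 105470729) had log2 values of 3.19, 1.82 and 2.50 in Vorinostat replicates 1, 2 and 3, against 3.50, 2.72 and 2.55 in DMSO replicates 1, 2 and 3, at its brightest probe set, 211783_s_at. It was lower with Vorinostat in each replicate number, by differences of -0.31, -0.90 and -0.05, but the groups overlapped. The group difference was -0.42 (SE 0.43, 95% interval -1.50 to 0.66, adjusted p = 1 by limma). The other MTA1 probe set, 202247_s_at, differed by 0.21 (SE 0.33).

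MTA2 (chromosome 11, 62593214 to 62601865) was the dimmest gene of the set. It had log2 values of 1.53, 1.66 and 1.93 in Vorinostat replicates 1, 2 and 3, against 1.50, 1.62 and 1.72 in DMSO replicates 1, 2 and 3. The Vorinostat array was higher in each replicate number, but by no more than 0.21, and all 6 values lay below 3. Vorinostat replicate 2 lay below DMSO replicate 3, so the shared sign rests on pairing the arrays by number. Between the groups the difference was 0.09 (SE 0.14, 95% interval -0.26 to 0.44, adjusted p = 1 by limma), the narrowest interval of the 9 genes.

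MBD3, a NuRD subunit with a methyl-CpG-binding fold (chromosome 19, 1573596 to 1592865), was the only gene of the set above 3 on all 6 arrays. Its log2 values at 41160_at were 4.56, 3.89 and 3.84 in Vorinostat replicates 1, 2 and 3, against 5.32, 4.01 and 3.70 in DMSO replicates 1, 2 and 3. DMSO replicate 1 stood above the other 5 arrays, which overlapped between the groups. The difference of means was -0.24 (SE 0.48, 95% interval -1.44 to 0.95, adjusted p = 1 by limma). The other MBD3 probe sets differed by -0.09 (SE 0.21) at 202463_s_at and 0.01 (SE 0.59) at 222183_x_at.

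RBBP4 and RBBP7 are closely related WD40-repeat histone chaperones found in both NuRD and SIN3. RBBP4 (chromosome 1, 32651208 to 32686211) had log2 values of 3.86, 2.59 and 2.70 in Vorinostat replicates 1, 2 and 3, against 5.10, 3.12 and 2.64 in DMSO replicates 1, 2 and 3, at 210371_s_at. The Vorinostat array was lower in numbers 1 and 2 and slightly higher in number 3. Vorinostat minus DMSO came to -0.57 (SE 0.74, 95% interval -2.42 to 1.29, adjusted p = 1 by limma). The 6 probe sets of RBBP4 were split by sign, with 3 negative and 3 positive differences, from -0.57 at this one to 0.29 at 239071_at. After quantile normalisation of the arrays, the difference at 210371_s_at was -0.36 (SE 0.14) with an unadjusted p of 0.0471 and an adjusted p of 1 by limma.

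RBBP7 (chromosome X, 16844341 to 16870362) had the widest spread of the set. It had log2 values of 6.87, 1.97 and 2.47 in Vorinostat replicates 1, 2 and 3, against 7.90, 4.26 and 1.90 in DMSO replicates 1, 2 and 3. The values spanned the dim and the bright range within each group, and the Vorinostat array was lower in numbers 1 and 2 but higher in number 3. The group difference was -0.92 (SE 2.01, 95% interval -5.97 to 4.14, adjusted p = 1 by limma).

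SIN3A, the scaffold of the SIN3 complex (chromosome 15, 75369379 to 75455815), was among the 3 genes lower in each replicate number by the brightest probe set. At 225135_at it had log2 values of 2.63, 1.94 and 1.95 in Vorinostat replicates 1, 2 and 3, against 3.92, 2.28 and 1.95 in DMSO replicates 1, 2 and 3. The difference lay mostly in number 1, at -1.29, and in number 3 it was -0.003. Between the groups the difference was -0.54 (SE 0.56, 95% interval -1.96 to 0.88, adjusted p = 1 by limma). The other 3 SIN3A probe sets had positive differences of 0.04 (SE 0.42) at 238005_s_at, 0.09 (SE 0.45) at 238006_at and 0.24 (SE 0.22) at 238189_at.

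The 2 CoREST subunits were RCOR1, the scaffold that links the deacetylases to the demethylase, and KDM1A (LSD1), the demethylase that removes methyl groups from lysine 4 of histone H3. RCOR1 (chromosome 14, 102592649 to 102730561) had log2 values of 5.27, 2.29 and 2.40 in Vorinostat replicates 1, 2 and 3, against 6.24, 2.31 and 1.96 in DMSO replicates 1, 2 and 3, at 212612_at. The gene was measured above 3 on the arrays numbered 1 alone. The difference of means was -0.18 (SE 1.45, 95% interval -3.82 to 3.46, adjusted p = 1 by limma), and the other probe set, 237041_x_at, differed by 0.02 (SE 0.29).

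KDM1A (chromosome 1, 23019468 to 23083689) was lower with Vorinostat in each replicate number. Its log2 values at 212348_s_at were 4.83, 2.81 and 2.70 in Vorinostat replicates 1, 2 and 3, against 5.50, 3.15 and 2.77 in DMSO replicates 1, 2 and 3. The differences were -0.67, -0.34 and -0.06, while the SD was 1.20 among Vorinostat arrays and 1.48 among DMSO arrays, over 3 arrays each. Vorinostat replicate 2 lay above DMSO replicate 3, so the shared sign rests on pairing the arrays by number. Vorinostat minus DMSO came to -0.36 (SE 0.95, 95% interval -2.74 to 2.03, adjusted p = 1 by limma). With the replicate block the SE was 0.15 and the unadjusted p 0.0778, the lowest blocked p of the 9 brightest probe sets, and the adjusted p was 0.887 by limma.

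**Figure D2:**
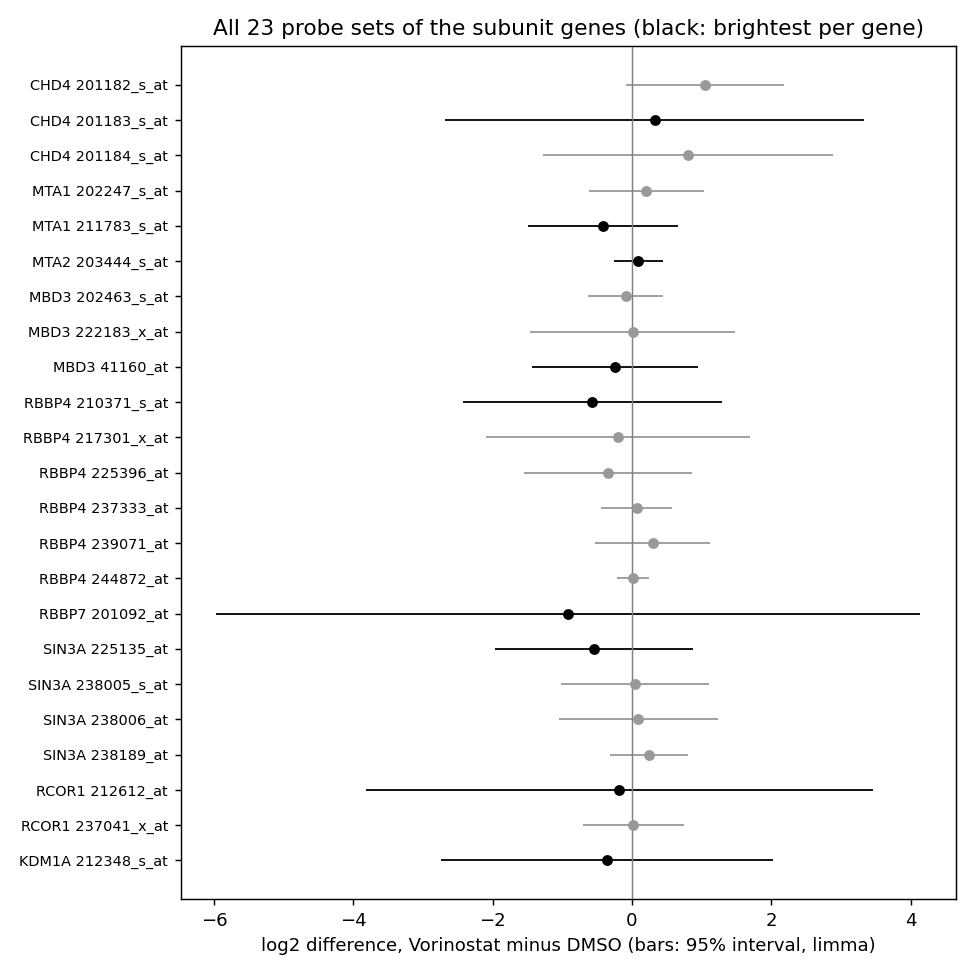
Log2 difference, Vorinostat minus DMSO (horizontal axis), of all 23 probe sets of the 9 genes (vertical axis), with 95% intervals from limma. Black marks the brightest probe set of each gene. In all, 10 differences were negative and 13 positive, and each interval, from the fit without a block, spans 0.

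Which probe set stood for a gene changed the sign for 5 of the 6 genes with several probe sets. MBD3, MTA1, RBBP4, RCOR1 and SIN3A each had at least 1 negative and 1 positive difference, and CHD4 was the exception. Over the 23 probe sets, 3 were lower and 4 were higher in each replicate number. Of all genes, by the brightest probe set, 13.7% were lower and 13.0% higher in each. The plot of differences for every probe set shows the widest intervals for the brightest probe sets of RBBP7, RCOR1 and CHD4.

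The replicate numbers gave different pictures of the set. By the brightest probe set, 8 of 9 genes were lower with Vorinostat in number 1, 8 of 9 in number 2 and 3 of 9 in number 3. The median difference of the 9 genes was -0.75, -0.34 and 0.14 in numbers 1, 2 and 3. The median over all genes was -0.01, -0.05 and 0.03 in those numbers, and over the 3379 genes with a mean of at least 3 it was -0.15, -0.73 and 0.20. The shift of the set in number 3 thus had the sign opposite to that in numbers 1 and 2. MTA1, SIN3A and KDM1A, 3 of 9, were lower in each number, against a background of 13.7% of genes, and MTA2, 1 of 9, was higher in each, against 13.0%. Among the 3379 genes with a mean of at least 3, 658 were lower and 193 higher in each number. Of the 9 genes, 6 had such a mean, and of these 1 was lower and 0 were higher in each number. These shares count signs alone, rest on pairing the arrays by number, and were not tested.

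**Figure D3:**
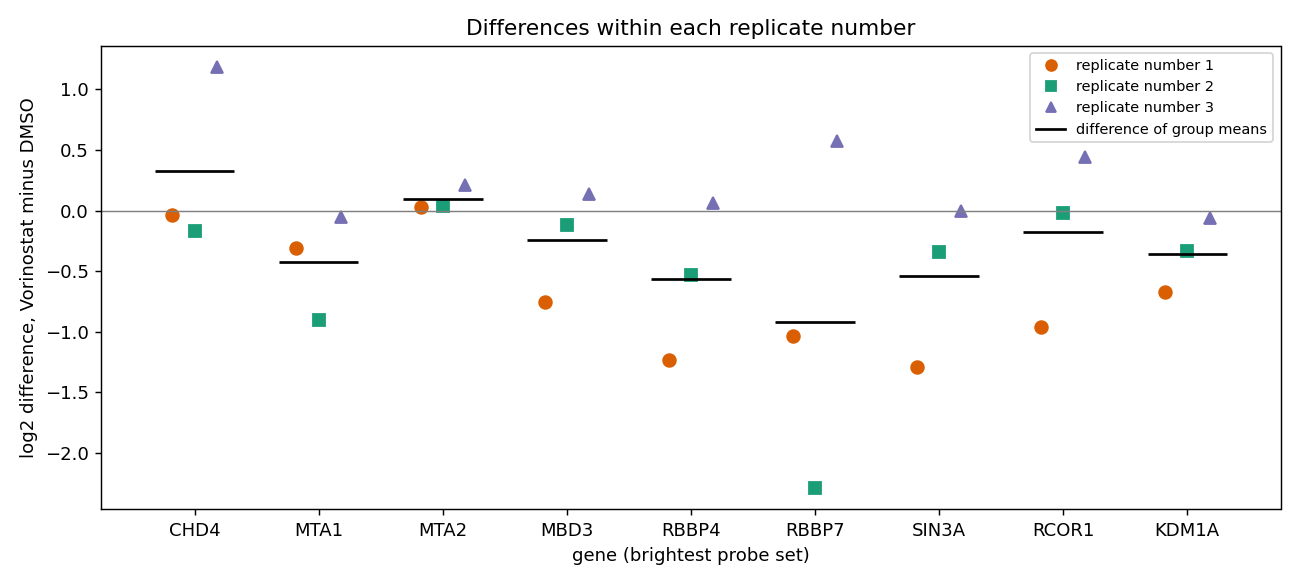
Log2 difference, Vorinostat minus DMSO, of the 9 genes within replicate numbers 1, 2 and 3, by the brightest probe set. Most genes lay below 0 in numbers 1 and 2, and 6 of 9 lay above 0 in number 3, where CHD4 reached 1.19.

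The median difference of group means was -0.36 for the 9 genes, against -0.02 for all genes and -0.23 for the genes with a mean of at least 3. It was 0.24 without DMSO replicate 1 and -0.88 without DMSO replicate 3. Leaving out DMSO replicate 1, one of the 2 arrays with the longer upper tail, turned the sign to positive for MBD3, RBBP4, RBBP7, SIN3A, RCOR1 and KDM1A. Vorinostat replicate 1, the other such array, stayed in, so this omission left the groups unbalanced. Leaving out both arrays numbered 1 gave a median of -0.17, with 5 negative and 4 positive differences, and quantile normalisation gave -0.22, also with 5 and 4. The part of this array difference in these values was not tested.

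Against this, the 11 measured housekeeping genes, fixed as a technical control, had a median difference of -0.51, and it was 0.01, -1.70 and -0.24 in numbers 1, 2 and 3. Differences of all 11 were negative. The median of the corepressor genes lay closer to 0 than that of the control genes over the group means and in numbers 2 and 3, and farther from 0 in number 1. The lists differ in brightness, since 10 of 11 control genes had a mean of at least 3, against 6 of the 9 corepressor genes. In number 2 the median was -0.05 over all genes and -0.73 over genes with such a mean. Without both arrays numbered 1, the medians were -0.97 for the control genes and -0.17 for the corepressor genes.

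The deacetylases that the complexes carry were also above 3 mainly on the arrays numbered 1. HDAC1 had log2 values of 7.97, 2.17 and 2.45 in Vorinostat replicates 1, 2 and 3, against 7.16, 2.63 and 1.56 in DMSO replicates 1, 2 and 3, a difference of 0.42 (SE 2.19, adjusted p = 1 by limma). HDAC2 had 7.18, 2.11 and 2.35 in Vorinostat replicates 1, 2 and 3, against 6.59, 1.87 and 2.31 in DMSO replicates 1, 2 and 3, a difference of 0.29 (SE 1.92, adjusted p = 1 by limma). HDAC3 had 6.40, 2.86 and 2.24 in Vorinostat replicates 1, 2 and 3, against 4.49, 3.39 and 2.73 in DMSO replicates 1, 2 and 3, a difference of 0.29 (SE 1.20, adjusted p = 1 by limma). All 3 differences were positive, HDAC2 alone was higher in each number, against 13.0% of genes, and the groups overlapped for each. For HDAC2, Vorinostat replicate 2 lay below DMSO replicate 3, so the shared sign rests on pairing the arrays by number. HDAC3 was positive through number 1 alone, at 1.90 against -0.53 and -0.50 in numbers 2 and 3, and it was -0.51 without both arrays numbered 1.

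Of 34 further subunits listed for the 4 complexes, 30 were measured, and 0 had an unadjusted p under 0.05 in the limma fit without a block, against the background of 0.991% of genes. Their differences were 16 negative and 14 positive, with a median of -0.04. Each was read at its brightest probe set alone, so its sign may depend on that choice. With the replicate block 3 of the 30, GATAD2A, SAP30 and RCOR3, had an unadjusted p under 0.05 (0.0123, 0.029 and 0.0482 by limma), against 5.37% of genes, with an adjusted p of 0.887 each. RCOR3 was named after its values were seen.

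Among the other NuRD subunits, 5 of 7 measured had negative differences, with a median of -0.09. GATAD2A, which bridges the remodeller to the deacetylase core, had log2 values of 5.56, 4.33 and 3.51 in Vorinostat replicates 1, 2 and 3, against 4.95, 3.82 and 2.25 in DMSO replicates 1, 2 and 3. It was higher with Vorinostat in each number, although the groups overlapped, and the difference was 0.80 (SE 0.85, adjusted p = 1 by limma). Vorinostat replicate 3 lay below DMSO replicate 2, so the shared sign rests on pairing the arrays by number. In this list 1 gene was higher and 1 lower in each number, against 13.0% and 13.7% of genes. CHD3, a paralogue of CHD4, differed by 0.24 (SE 0.43). CHD5, another paralogue, differed by -0.09 (SE 0.13), MTA3 by -0.12 (SE 0.26), and CDK2AP1, a small NuRD subunit, by -0.55 (SE 1.08).

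Among the other SIN3 subunits, 7 of 12 measured had negative differences, with a median of -0.04. SAP30, a SIN3-associated bridging protein, had log2 values of 2.92, 1.80 and 1.91 in Vorinostat replicates 1, 2 and 3, against 4.08, 2.61 and 2.09 in DMSO replicates 1, 2 and 3. It was lower with Vorinostat in each number, and the difference was -0.72 (SE 0.60, adjusted p = 1 by limma). Its paralogue SAP30L differed by -0.26 (SE 0.20), and PHF12, a zinc-finger subunit, by -0.27 (SE 0.19), and both were also lower in each number. SAP30L and PHF12 exceeded 3 on no array. Over the list, 3 of 12 were lower and 1 was higher in each number, against 13.7% and 13.0% of genes. SIN3B, the paralogue of SIN3A, differed by 0.22 (SE 0.27), ING1, which reads methylated histone H3, by 0.17 (SE 0.48), and SINHCAF by 0.82 (SE 1.33).

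The CoREST list was the only one of the 4 lists of further subunits with more positive than negative differences. Of 7 measured, 5 had positive differences, with a median of 0.35, against 9273 of all 19775 genes, and 3 were higher in each number, against the 13.0% of genes. Without both arrays numbered 1 the median was 0.15, ZMYM2 was -0.23, HMG20B was 0.16 and GSE1 was 0.07. RCOR2, a paralogue of RCOR1, differed by 0.39 (SE 0.29), GSE1 by 0.35 (SE 0.74) and ZMYM2, a zinc-finger protein, by 0.36 (SE 0.98). ZMYM3, its paralogue, differed by -0.29 (SE 0.18, adjusted p = 1 by limma), and HMG20B, a high-mobility-group subunit, by -0.06 (SE 1.12). HMG20B varied most in this list, with differences of -0.50, -2.87 and 3.18 in numbers 1, 2 and 3.

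Of the NCoR and SMRT list, 4 of 5 were measured, 2 with negative and 2 with positive differences. TBL1X, a WD40-repeat subunit of both complexes, differed by -0.42 (SE 0.54), and its differences were 0.64, -0.24 and -1.67 in numbers 1, 2 and 3. Only DMSO replicate 3, at 3.44, exceeded 3 for TBL1X, so its negative difference rests on that array. TBL1XR1, its paralogue, differed by -0.53 (SE 1.26), CORO2A, an actin-binding subunit, by 0.06 (SE 0.15) and GPS2 by 0.12 (SE 0.78). The plot of list medians shows the medians by number, in which no list of complex subunits kept 1 sign apart from the CoREST list. Its medians were 0.083, 0.009 and 0.238 in numbers 1, 2 and 3, and 3 of its 7 measured genes had a mean of at least 3. RCOR1 and KDM1A, with negative differences of -0.18 and -0.36, are not part of that list.

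**Figure D4:**
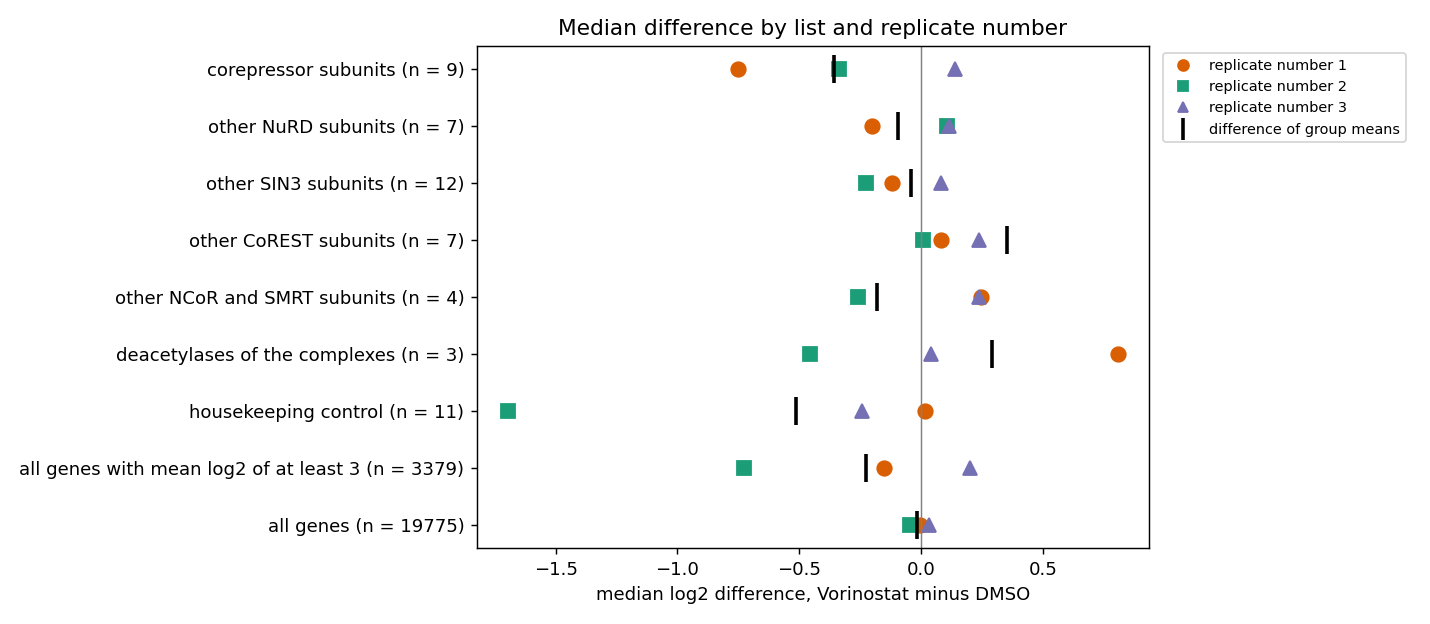
Median log2 difference, Vorinostat minus DMSO (horizontal axis), of the 9 genes, the further subunits of each complex, the deacetylases, the housekeeping control and all genes. Coloured symbols are medians within each replicate number, and black lines are medians of the difference of group means. The 9 genes had medians of -0.75, -0.34 and 0.14 in numbers 1, 2 and 3.

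In both groups, 8 of the 9 genes were highest on the array numbered 1, the exception being MTA2. Centred on each gene's own mean, the average profile was 1.00, -0.85 and -0.62 in Vorinostat replicates 1, 2 and 3, and 1.70, -0.33 and -0.90 in DMSO replicates 1, 2 and 3. It was thus highest on the 2 arrays numbered 1. Likeness of profiles was measured as the mean absolute difference of centred log2 values over the 6 arrays. The closest pairs were MBD3 and SIN3A at 0.15, RBBP4 and SIN3A at 0.21, and RBBP4 and KDM1A at 0.26. Outside the set, the genes with a mean of at least 3 closest to the average profile were RMP64 at 0.08, PCYOX1, a prenylcysteine oxidase, at 0.08, and SNUPN, the snurportin import adaptor of spliceosomal ribonucleoproteins, at 0.09. Their log2 differences were -0.21 for RMP64 (SE 0.87), -0.46 for PCYOX1 (SE 0.86) and -0.18 for SNUPN (SE 0.80). All these profiles come from the same 6 arrays.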

How the data were processed

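Total RNA of 6 OCI-AML3 samples, 3 per group, was measured on U133 Plus 2.0 arrays. The authors deposited log2 values per probe set. Their methods name Partek Genomics Suite, the submitters' processing notes list MAS5 and RMA without a role, and the genome build is not given in the sources used here. Of 54675 probe sets, 62 controls were left out. Of the rest, 41091 named 1 gene, 1801 several and 11721 none in the annotation used. Where several probe sets named a gene and no other gene, the brightest by its 6-array mean stood for it. Groups came from the labels.

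The fit was lmFit and eBayes of limma 3.58.1 in R 4.3.3, with no block and no filter, and Benjamini-Hochberg adjustment over 54613 probe sets. It was tested on simulated data drawn independently for each probe set and array, which hold no shared difference between arrays. The members and lists were chosen with earlier results of these data known. Text names all members, up to 3 further subunits per list and direction by unadjusted p, the 3 most alike profiles and HDAC1 to HDAC3. The replicate numbers were taken to pair samples, and counts by number and the blocked fit rest on this. Deviations from group means of same-numbered arrays correlated at 0.874, 0.599 and 0.672 for numbers 1, 2 and 3. Deviations within a group cancel in sum, and both arrays numbered 1 stood apart. Numbers 2 and 3 would then correlate in any pairing, so these correlations cannot show which of them are pairs. Numbers 2 and 3 also correlated crosswise, at 0.695 and 0.594, so they are poorly told apart. The deposited values carry no detection calls, so a log2 value of 3 marked dim probe sets, and the number of arrays limits the precision. Alternatives were quantile normalisation, median centring, the block, the methods' t-test, a filter at a mean of 3, the mean of all probe sets per gene, and leaving out arrays. Promoter windows came from RefSeq (GRCh38.p14).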

Additional observations from a re-analysis of the deposited data

How the results depend on the processing

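In every alternative run over all probe sets, 0 had an adjusted p under 0.05, and 0 of the 9 genes passed the study's threshold. With the replicate block, 0 of the 9 genes had an unadjusted p under 0.05 and 2007 of all probe sets did, against 545 without it; the methods' t-test gave 1115, quantile normalisation 877 and the fit without both arrays numbered 1 gave 1838. The block changed no call after adjustment. Quantile normalisation brought 1 of the 9 genes, RBBP4, under 0.05 unadjusted, placed 4 genes lower (3 without it) and 2 higher in each number, and turned MBD3 to 0.064 and RCOR1 to 0.10. Median centring left 2 genes lower in each number, without SIN3A. Without both arrays numbered 1, MBD3 was 0.01 and RCOR1 0.21. With the mean of all probe sets per gene, 2 genes were higher and 1 lower in each number. With a filter at a mean of 3, 0 were higher and 1 lower, because 6 genes were left. An alternative chosen after seeing the data took the brightest probe set over numbers 2 and 3; RBBP4 was then 0.29, SIN3A 0.09, RCOR1 0.019 and the median of the set 0.019, and 2 genes were higher in each number. The causes were not tested.

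Leaving out each array in turn, differences ran from -0.54 to 1.38 for CHD4, -1.05 to 0.49 for KDM1A, -0.56 to 0.24 for MBD3, -0.76 to -0.08 for MTA1, -0.018 to 0.18 for MTA2, -1.06 to 0.17 for RBBP4, -2.47 to 0.69 for RBBP7, -1.16 to 1.19 for RCOR1, -0.93 to 0.058 for SIN3A and -0.88 to 0.24 for the median of the set. CHD4 turned negative without Vorinostat replicate 1 or DMSO replicate 3 (-0.40). MTA2 turned negative without Vorinostat replicate 3. KDM1A turned positive without Vorinostat replicate 3 (0.02) or DMSO replicate 1, and RCOR1 without Vorinostat replicates 2 (0.33) or 3 (0.28) or DMSO replicate 1. MBD3, RBBP4, RBBP7 and SIN3A turned without DMSO replicate 1. Leaving out a single array keeps its number in the other group alone, so the groups are then unbalanced. Counting only alternatives that could change a gene's difference, MTA1 kept its sign in 10 of 10, and 19 of 91 over the 9 genes reversed it. The block, the methods' t-test and the filter leave the difference as it is.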
